A study of Mus musculus with 6 samples.

Results

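The 10 genes described here encode the MCM helicase and the factors that load and activate it at replication origins: Mcm2, Mcm3, Mcm4, Mcm5, Mcm6, Mcm7, Cdc6, Cdt1, Cdc45 and Gins2. They were taken by symbol from the deposited count table, and all 10 were found among its 23565 genes and passed the filter on low counts. The table comes from bulk RNA sequencing, each library made from many epithelial cells sorted out of mouse small intestinal crypts. The Hopx-CreER group holds 3 libraries of tdTomato-positive cells from mice with the HopXCreER and Rosa26LSL-tdTomato alleles. The Lgr5-CreER group holds 3 libraries of cells positive for both eGFP and tdTomato, from mice with the Lgr5eGFP-IRES-CreER and Rosa26LSL-tdTomato alleles. CreER is a Cre recombinase that acts once tamoxifen is given, the Rosa26 allele then makes the red protein tdTomato, and each Cre is driven by the gene in its name. All mice received 1 mg of tamoxifen, and crypts were taken 16 hours later. Effects of allele and of sorting gate cannot be told apart, and the labels give neither age nor sex. Which mouse gave which library is not labelled, so p-values measure the spread between these libraries.

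Before a cell enters S phase, the origin recognition complex, Cdc6 and Cdt1 load the MCM helicase, a ring of the subunits Mcm2 to Mcm7, onto each origin, a step called licensing. Kinases then recruit Cdc45 and the GINS complex, of which Gins2 is a subunit, and the assembled Cdc45-MCM-GINS helicase unwinds DNA. Geminin, encoded by Gmnn, blocks Cdt1 once S phase has begun, so each origin fires no more than once a cycle. E2F transcription factors are known to drive MCM, Cdc6 and Cdt1 genes as cells leave quiescence. In the intestinal crypt, the Lgr5 stem cells and the progenitors above them cycle, and the mature cell types do not.

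Library totals ran from 11447879 to 13728768 counts in Hopx-CreER cells and from 10839306 to 14570555 counts in Lgr5-CreER cells. A single count was worth 0.067 to 0.093 CPM, where CPM is the count scaled to a common library size with TMM factors. The 10 genes were well covered, with 389 counts at the least, for Mcm4 in Hopx-CreER library 3, and 11719 at the most, for Mcm6 in Lgr5-CreER library 1. Library numbers follow the table's columns and pair nothing. Hopx-CreER library 3 differed from the mean of libraries 1 and 2 of its group in a way that followed the GC content of transcripts (Spearman rho 0.471 across 12386 genes, which are not independent replicates). No such correlation was computed for the other libraries. The column name of Hopx-CreER library 3 carries an extra tag that the labels do not explain. Lgr5-CreER libraries 2 and 3 carry the same number in their column names, and whether they came from separate mice could not be checked. The epithelial genes Epcam and Cdh1 stood at 2207 ± 189 and 1334 ± 234 CPM in Hopx-CreER cells and at 2251 ± 134 and 1664 ± 115 CPM in Lgr5-CreER cells (SD, n = 3 each). Krt8, a keratin of simple epithelia, stood at 6471 ± 656 CPM in Hopx-CreER cells and 3228 ± 190 CPM in Lgr5-CreER cells; these 3 genes were chosen with their values known. The 12 immune and stromal markers in the table summed to 2.56 to 6.51 CPM in Hopx-CreER libraries and 0.602 to 2.25 CPM in Lgr5-CreER libraries. Collagen gene Col1a1 was at 0 in every library.

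The promoters of these genes are shown first, because E2F sites near the start are a known feature of this gene group. The RefSeq promoter table (GRCm38.p6) held windows for 8 of the 10 members, each of 250 bases before the start and 50 after it. The search was for the E2F words TTTCCCGC, TTTCGCGC, TTTGCCGC and TTTGGCGC on both strands. At least 1 word was found in a window of 6 of these 8 members, against 2.26% of all 32851 windows in the table. The first count is by member, over 9 windows, and the second is by window. Positions are counted with the RefSeq start as 0, which can differ from the end of the gene span given below. The windows of Cdc6 and Mcm7 lie inside those spans. The 250 bases before the start of Mcm6, the member with the most matches, lie on the minus strand at chr1:128359706-128359955, with the words in capitals at -110, -106 (overlapping the first, on the other strand) and -47.
Mcm6: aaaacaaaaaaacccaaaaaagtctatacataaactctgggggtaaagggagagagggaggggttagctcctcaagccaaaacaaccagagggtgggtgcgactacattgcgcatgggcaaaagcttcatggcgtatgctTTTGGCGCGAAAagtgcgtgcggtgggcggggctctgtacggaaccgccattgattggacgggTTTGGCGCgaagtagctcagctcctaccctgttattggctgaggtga

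The other members with a word are shown by 30 bases around it, to compare the sites. Mcm3 (minus strand, chr1:20820265-20820294) has words at 19 and 38. Mcm5 (plus strand, chr8:75109347-75109376) has a pair that overlap, at -153 and -149. Mcm7 (minus strand, chr5:138172030-138172059) has a word at -165 and another at 16 in the same window, and none in its second window. Cdc6 (plus strand, chr11:98908002-98908031) has a word at -138, and Cdt1 (plus strand, chr8:122568035-122568064) has it at 32.
Mcm3: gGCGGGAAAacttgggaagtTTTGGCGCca
Mcm5: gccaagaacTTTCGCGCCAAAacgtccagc
Mcm7: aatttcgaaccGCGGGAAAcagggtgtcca
Cdc6: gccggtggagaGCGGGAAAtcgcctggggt
Cdt1: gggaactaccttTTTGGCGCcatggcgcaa

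Mcm2 and Cdc45 had a window without these words. The 250 bases before the start of Mcm2 (minus strand, chr6:88898781-88899030) are shown for contrast, since Mcm2 was among the members that fell.
Mcm2: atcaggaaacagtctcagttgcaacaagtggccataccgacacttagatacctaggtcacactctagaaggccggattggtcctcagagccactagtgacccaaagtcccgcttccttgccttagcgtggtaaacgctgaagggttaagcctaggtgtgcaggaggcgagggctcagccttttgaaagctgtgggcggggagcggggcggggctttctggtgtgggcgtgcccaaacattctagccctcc
The pentamer CCAAT, in either direction, was present in a window of 6 of these 8 members, counted by member, and in 37.4% of all windows, counted by window. A word match is a description of letters in a window.

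Transcripts of 3 of the 6 MCM subunits were lower in Hopx-CreER cells, and the other subunits, the loading factors and the activators did not pass the test. Of the 10 members, 3 fell at an edgeR adjusted p under 0.05 (Mcm6, Mcm3 and Mcm2), 0 rose and 7 did not pass, while 3.3% of the 12439 genes tested were called lower. At an unadjusted p under 0.05, 6 members were lower, against 11.1% of all genes tested. On the log2 scale, the median fold change of Hopx-CreER over Lgr5-CreER cells was -0.36 over the 10 members and -0.03 over all tested genes. For 5 members, all Hopx-CreER libraries lay under all Lgr5-CreER libraries, which held for 16.2% of tested genes. Because each library is bulk RNA, fewer cells with these transcripts and less transcript per cell cannot be told apart.

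**Figure D1:**
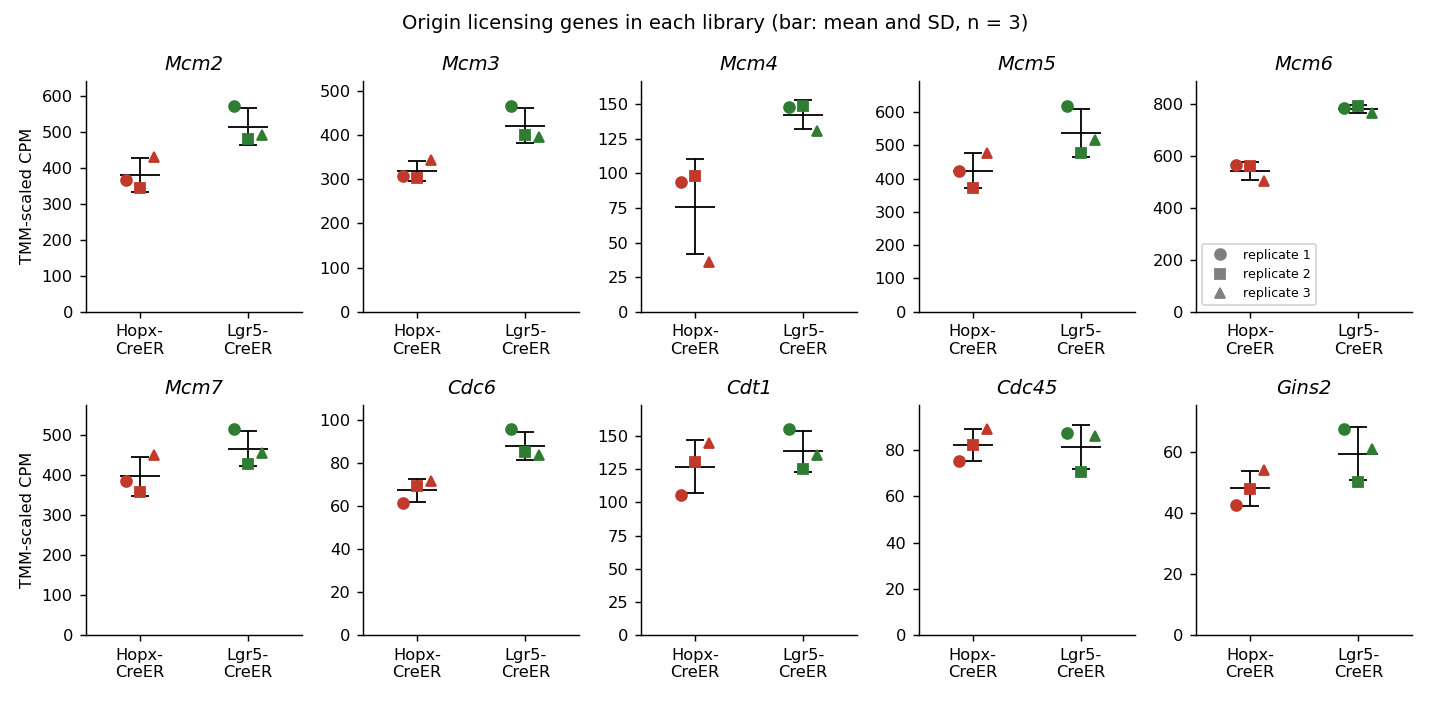
TMM-scaled CPM of each of the 10 genes (vertical axes from 0) in the 3 Hopx-CreER libraries (red) and the 3 Lgr5-CreER libraries (green), with marker shape for the replicate and a bar for mean and SD. Groups are apart for Mcm2, Mcm3, Mcm4, Mcm6 and Cdc6, and Hopx-CreER replicate 3 of Mcm4 sits at 36.1 CPM.

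Among the core subunits, Mcm6 showed the clearest fall. Mcm6 (ENSMUSG00000026355.11; minus strand of chromosome 1, 128331590 to 128359664, GRCm38) had 565, 560.4 and 503 CPM in Hopx-CreER libraries, against 784, 793 and 765 CPM in Lgr5-CreER libraries. The groups were apart by more than their spread. The log2 fold change was -0.52 ± 0.10 (SE; 95% interval -0.75 to -0.30; edgeR adjusted p 0.00926). It stayed under 0.05 in 18 of 18 other fits, the highest adjusted p being 0.0464, without Lgr5-CreER library 2.

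Mcm2 (ENSMUSG00000002870.8; minus strand of chromosome 6, 88883474 to 88898780) and Mcm3 (ENSMUSG00000041859.10; minus strand of chromosome 1, 20802968 to 20820312) both fell close to the threshold. Mcm2 had 366, 343 and 432 CPM in Hopx-CreER libraries, against 573, 481 and 491 CPM in Lgr5-CreER libraries. Mcm3 had 306, 303 and 343 CPM in Hopx-CreER libraries, against 466, 399.9 and 396 CPM in Lgr5-CreER libraries. In both, library 3 was the highest of the Hopx-CreER group and library 1 the highest of the Lgr5-CreER group, and the groups did not overlap. The log2 fold change was -0.44 ± 0.12 for Mcm2 (SE; edgeR adjusted p 0.0494) and -0.41 ± 0.11 for Mcm3 (SE; edgeR adjusted p 0.0424). Leaving out any library other than Hopx-CreER library 3 ended both calls, at adjusted p of up to 0.161 for Mcm2 and 0.144 for Mcm3.

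Mcm4, Mcm5 and Mcm7, the remaining subunits, did not pass the test. Mcm4 (ENSMUSG00000022673.4; minus strand of chromosome 16, 15623897 to 15637400) had 93.5, 98 and 36.1 CPM in Hopx-CreER libraries, against 148, 149 and 130.4 CPM in Lgr5-CreER libraries. All Hopx-CreER values lay lower, and library 3 lay far under the other two. Its log2 fold change of -0.91 ± 0.31 (SE) was the most negative of the 10 and missed the threshold (edgeR adjusted p 0.089). Without Hopx-CreER library 3 it was -0.59 with an adjusted p of 0.00656, so Mcm4 passed once that library was left out. With all 6 libraries it passed in DESeq2 (adjusted p 0.0162), with GC offsets (edgeR adjusted p 0.0331) and with no filter on low counts (edgeR adjusted p 0.00742).

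Mcm5 (ENSMUSG00000005410.6; plus strand of chromosome 8, 75109569 to 75128439) had 422, 372 and 477.2 CPM in Hopx-CreER libraries, against 619, 477.1 and 515 CPM in Lgr5-CreER libraries. The groups touched through Hopx-CreER library 3 and Lgr5-CreER library 2 (log2 fold change -0.34 ± 0.14, SE; edgeR adjusted p 0.14). Without Hopx-CreER library 3 it was -0.45 with an edgeR adjusted p of 0.0421. Mcm7 (ENSMUSG00000029730.16; minus strand of chromosome 5, 138164583 to 138172422), which also hosts the microRNAs Mir25, Mir93 and Mir106b, had 385, 357 and 451 CPM in Hopx-CreER libraries, against 514, 429 and 455 CPM in Lgr5-CreER libraries. Its groups overlapped (log2 fold change -0.23 ± 0.12, SE; 95% interval -0.51 to 0.05; edgeR adjusted p 0.267).

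Neither loading factor passed the test as reported, and whether they differ from each other was not tested. Cdc6 (ENSMUSG00000017499.15; plus strand of chromosome 11, 98907801 to 98923940), the ATPase that brings MCM to the origin, had 61.5, 69.5 and 71.6 CPM in Hopx-CreER libraries, against 95.8, 85.2 and 83.7 CPM in Lgr5-CreER libraries. Its groups did not overlap, but it missed the threshold (log2 fold change -0.39 ± 0.12, SE; edgeR adjusted p 0.0711), and passed without Hopx-CreER library 3 (edgeR adjusted p 0.0351). Cdt1 (ENSMUSG00000006585.3; plus strand of chromosome 8, 122568015 to 122573554), which escorts MCM to the origin, had 106, 130.5 and 145 CPM in Hopx-CreER libraries, against 155, 125 and 136 CPM in Lgr5-CreER libraries. The Cdt1 groups overlapped in most of their range (log2 fold change -0.13, 95% interval -0.45 to 0.20; edgeR adjusted p 0.61). With GC offsets, Cdc6 was at -0.43 (edgeR adjusted p 0.0539) and Cdt1 at -0.40 (edgeR adjusted p 0.0456).

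The helicase activators were no clearer. Cdc45 (ENSMUSG00000000028.14; minus strand of chromosome 16, 18780447 to 18811987) had 75.3, 82.1 and 88.9 CPM in Hopx-CreER libraries, against 87.2, 70.6 and 86.2 CPM in Lgr5-CreER libraries. It was the single member with a positive log2 fold change, at 0.01 (95% interval -0.28 to 0.31; edgeR adjusted p 0.958), and that sign turned under library totals alone (-0.10), upper quartile factors (-0.03) and GC offsets (-0.03). Gins2 (ENSMUSG00000031821.11; minus strand of chromosome 8, 120578633 to 120589304) had 42.6, 47.9 and 54.1 CPM in Hopx-CreER libraries, against 67.5, 50.2 and 61.1 CPM in Lgr5-CreER libraries. Its groups overlapped (log2 fold change -0.31, 95% interval -0.67 to 0.05; edgeR adjusted p 0.247). The libraries do not mark strand, and 67.3% of Gins2 exon bases also lie in exons of the opposite-strand gene Gse1, which had 1156 counts in all, so part of the Gins2 count is uncertain. Such overlaps took 7.25% of Mcm7 exon bases (Ap4m1) and 5.96% of Cdc45 exon bases (Ufd1).

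Markers of other crypt cell types differed in the same libraries. Most Paneth, goblet, enteroendocrine, tuft and enterocyte markers were higher in Hopx-CreER cells. Called higher were 10 of 11 Paneth, 8 of 9 goblet, 9 of 12 enteroendocrine, 7 of 8 tested tuft and 9 of 11 enterocyte markers, and 0 were called lower. The enteroendocrine list includes the transcription factors Neurog3, Pax4 and Neurod1 and is not limited to mature cells. Across all 12439 genes tested, 9.45% were called higher and 3.3% lower. Paneth markers summed to 15006 to 32598 CPM in Hopx-CreER libraries and to 1668 to 3270 CPM in Lgr5-CreER libraries. Goblet markers summed to 7080 to 10655 CPM in Hopx-CreER libraries and 2060 to 2730 CPM in Lgr5-CreER libraries. Enteroendocrine markers summed to 2962 to 6303 CPM in Hopx-CreER libraries and 187 to 335 CPM in Lgr5-CreER libraries. Tuft markers summed to 222 to 915 CPM in Hopx-CreER libraries and 105 to 152 CPM in Lgr5-CreER libraries, and enterocyte markers to 2039 to 3733 CPM in Hopx-CreER libraries and 918 to 1150 CPM in Lgr5-CreER libraries. Of 12 Lgr5 stem cell markers, 10 were called lower, and they summed to 3096 to 5035 CPM in Hopx-CreER libraries and 10391 to 10951.5 CPM in Lgr5-CreER libraries. None of these markers was at 0 in every library, and their part in the lower MCM transcripts was not tested. With scaling factors computed without Paneth markers and the 10 most abundant genes, Mcm3 and Mcm6 were called (3.29% of all genes lower), and Mcm2 was not (log2 fold change -0.44, edgeR adjusted p 0.0502). The 6 MCM subunits summed to 2137, 2034 and 2243 CPM in Hopx-CreER libraries, against 3105, 2729 and 2752 CPM in Lgr5-CreER libraries.

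Hopx-CreER library 3 ordered the members by GC content of the longest transcript. It was the highest library of its group for 8 members, whose GC content was 49.2% to 57.8%. It was the lowest for the other two, Mcm6 and Mcm4, at 47.3% and 45.5%, and for 41.2% of all tested genes. Its log2 CPM differed from the mean of libraries 1 and 2 by -1.41 for Mcm4 and -0.16 for Mcm6, and by 0.30 for Cdt1 at the GC-rich end. Over the 10 genes, Spearman's rho between that difference and GC content was 0.782, as a description over genes that share 3 libraries. The same 8 members were highest in Lgr5-CreER library 1 among Lgr5-CreER libraries. Across all tested genes, Hopx-CreER library 3 was highest in 36.8% and Lgr5-CreER library 1 in 35.9%.

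**Figure D2:**
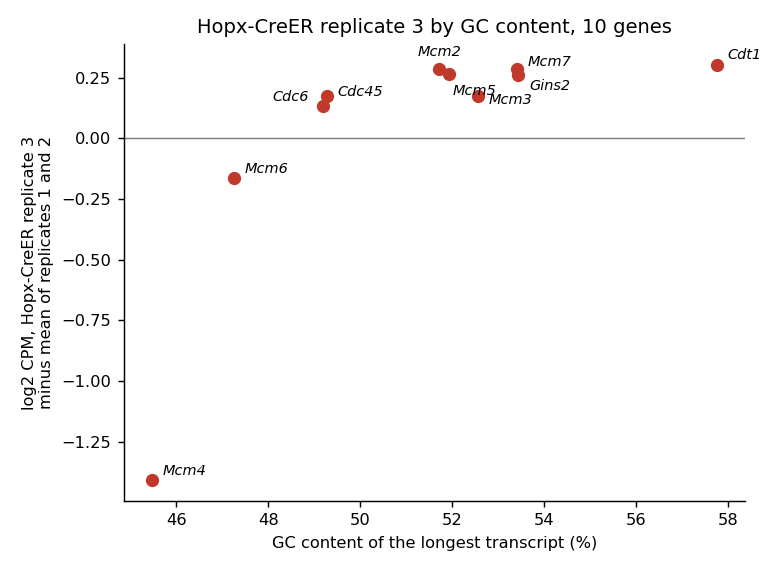
For each of the 10 genes, the log2 CPM of Hopx-CreER replicate 3 minus the mean log2 CPM of replicates 1 and 2 (vertical axis) is plotted against the GC content of the longest transcript in percent (horizontal axis). Mcm4 and Mcm6, at the low GC end, lie under 0, at -1.41 and -0.16, and the others lie over 0.

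The count of members called moved with that library and with GC content. Without Hopx-CreER library 3, 6 members fell (Mcm2, Mcm3, Mcm4, Mcm5, Mcm6 and Cdc6), against 4.6% of all genes called lower in that fit. With offsets that remove each library's trend with GC content, 8 fell, all but Cdc6 and Cdc45, against 8.35% of all genes, and the median of the members was -0.48 against -0.10 over all genes. GC offsets brought the share of all calls that were higher in Hopx-CreER cells to 50.1%, against 74.1% without them. Mcm6 alone was called without Hopx-CreER library 1 or 2 (3.14% and 1.7% of all genes lower), without Lgr5-CreER library 1, 2 or 3 (1.58%, 0.911% and 1.26%), with RLE factors (3.39%) or at a threshold of 0.01 (0.796%). Library totals alone gave 5 members, against 5.86% of all genes. Mcm2, Mcm3, Mcm4 and Mcm6 were called by DESeq2 (4.59% of all genes lower) and with no filter on low counts (2.85%), and Mcm3 and Mcm6 with a filter at 1 CPM in 3 libraries (3.38%). When Lgr5-CreER libraries 2 and 3 were summed as 1 library, 1 member fell (Mcm6), against 1.02% of all genes. A combination added after the data were seen, GC offsets without Hopx-CreER library 3, called all but Cdc45, against 9.29% of all genes.

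**Figure D3:**
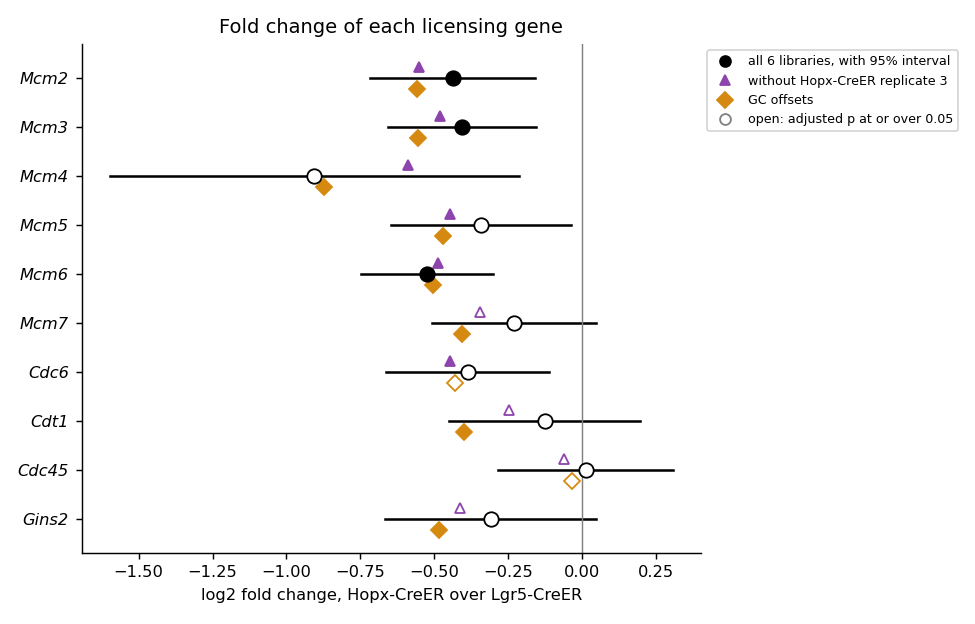
Fold change (log2, Hopx-CreER over Lgr5-CreER, horizontal axis) of each gene with all 6 libraries (black circle, line for the 95% interval), without Hopx-CreER replicate 3 (purple triangle) and with GC offsets (orange diamond). Filled marks have an edgeR adjusted p under 0.05, and Mcm2, Mcm3 and Mcm6 are filled in all 3.

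Levels of different genes were compared as CPM per kilobase of merged exons. In Hopx-CreER cells Mcm6 was highest, at 116 ± 7.44, followed by Mcm5 at 106 ± 13.1, Mcm7 at 89.9 ± 11, Mcm3 at 84.6 ± 5.99 and Mcm2 at 54.7 ± 6.64 CPM per kilobase (SD, n = 3). Mcm4 was at 21.1 ± 9.62 CPM per kilobase, within its SD of Cdc45 at 23.4 ± 1.93 and under Cdt1 at 40.4 ± 6.33. Cdc6 and Gins2 were lowest, at 12.9 ± 1.02 and 11.8 ± 1.4 CPM per kilobase. Neighbours from Mcm6 down to Mcm3 differed by less than the summed SDs, as did Cdc6 and Gins2. In Lgr5-CreER cells Mcm6 stood at 167 ± 3.10, Mcm5 at 134 ± 18.4, Mcm3 at 112 ± 10.5, Mcm7 at 105 ± 9.87, Mcm2 at 74 ± 7.30 and Mcm4 at 39.7 ± 2.88 CPM per kilobase (SD, n = 3). By merged exons, Mcm6 had the highest mean of the ring in both groups, although Mcm5 (120 CPM per kilobase) exceeded Mcm6 (108) in Hopx-CreER library 3. This order depends on the length used, as the shares of the ring show, and Mcm4 was the lowest subunit of the ring by either length.

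Shares of the ring were compared over 3 libraries a group, too few for any difference to pass at 0.05. Mcm7 took 18.3%, 17.9% and 20.7% of the summed per-kilobase level of the 6 subunits in Hopx-CreER libraries, against 16.9%, 16.1% and 16.9% in Lgr5-CreER libraries. All Hopx-CreER shares of Mcm7 lay higher, by 2.34 percentage points on average (exact two-sided permutation p = 0.1, the smallest that 3 against 3 allows; 0.6 adjusted over 6 subunits). Mcm4 took 5.50%, 6.05% and 2.04% in Hopx-CreER libraries, against 5.99%, 6.87% and 5.98% in Lgr5-CreER libraries. The other subunits differed by -1.86 (Mcm6) to 1.22 (Mcm5) percentage points, with exact permutation p of 0.4 to 0.9. Without Hopx-CreER library 3, the differences shrank to -0.45 for Mcm6, -0.51 for Mcm4, 0.30 for Mcm5 and 1.47 percentage points for Mcm7. In that setting the difference grew from -0.14 to -0.67 for Mcm2 and turned from 0.19 to -0.14 percentage points for Mcm3. The shares also depend on the length used. The share of Mcm2 was 11.5 ± 0.92% in Hopx-CreER cells and 11.7 ± 0.28% in Lgr5-CreER cells, and by the longest transcript 17.9 ± 1.16% in Hopx-CreER cells and 18.3 ± 0.36% in Lgr5-CreER cells (SD, n = 3), which placed it over Mcm3 (15.2% in both groups). By the longest transcript Mcm7 had the highest share in Hopx-CreER cells, at 22.1 ± 1.44% against 20.6 ± 2.36% for Mcm6, and Mcm6 the highest in Lgr5-CreER cells, at 22.4 ± 1.70% against 19.7 ± 1.19% for Mcm5.

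**Figure D4:**
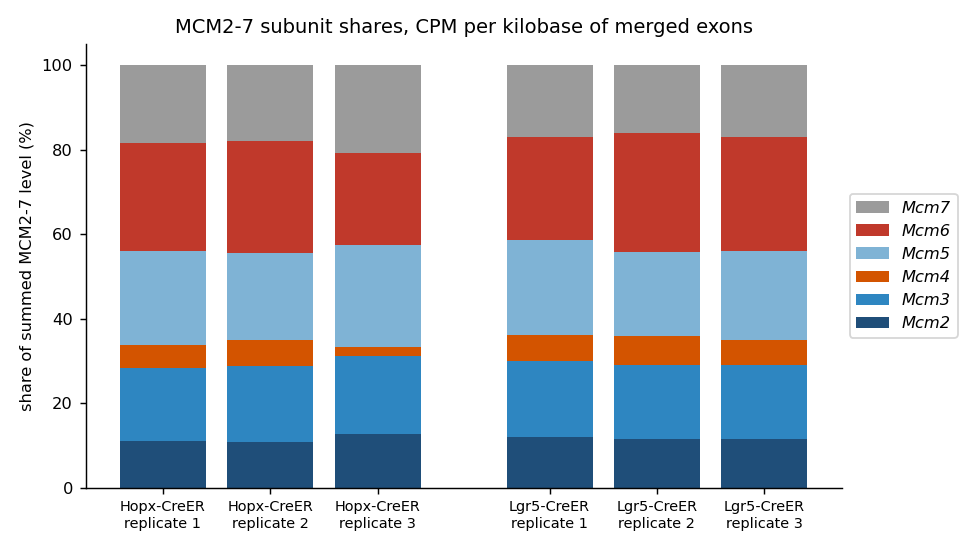
Stacked bars give the share of each of the 6 ring subunits in their summed level (CPM per kilobase of merged exons, percent) for each Hopx-CreER library on the left and each Lgr5-CreER library on the right. The Mcm4 band narrows to 2.04% in Hopx-CreER replicate 3, and Mcm6 is the widest in 5 of the 6 libraries.

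Genes that act with the members mostly did not pass the test. Of the 14 genes of origin recognition and MCM helpers, 0 were called by edgeR, DESeq2 or limma-voom and 2 had an unadjusted p under 0.05, which 27.3% of all tested genes had, with a median log2 fold change of -0.17 (-0.09 without Hopx-CreER library 3). Brpf3, a subunit of the Kat7 acetyltransferase complex, was at 0.48 ± 0.19 (SE, log2; edgeR adjusted p 0.129), and Orc3 at -0.41 ± 0.18 (edgeR adjusted p 0.168). Orc1, the subunit of the origin recognition complex whose level follows the cell cycle, was at 14.3, 11.9 and 13.7 CPM in Hopx-CreER libraries, against 24.2, 18.4 and 14.7 CPM in Lgr5-CreER libraries (edgeR adjusted p 0.198). Mcm10, an initiation factor, and Mcmbp, an MCM-binding chaperone, were at -0.14 ± 0.16 and -0.17 ± 0.10 on the log2 scale (edgeR adjusted p 0.633 and 0.314).

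Of the 9 genes of licensing inhibition and turnover, 0 were called by edgeR and 4 were lower at an unadjusted p under 0.05, against 11.1% of all genes. The median was -0.44, and -0.26 without Hopx-CreER library 3. Gmnn, the inhibitor of Cdt1, had 83.6, 80.6 and 100.1 CPM in Hopx-CreER libraries, against 87.5, 83.4 and 75.6 CPM in Lgr5-CreER libraries (edgeR adjusted p 0.65). The log2 ratio of Cdt1 to Gmnn per kilobase was -0.58 ± 0.18 in Hopx-CreER cells and -0.35 ± 0.15 in Lgr5-CreER cells (SD, n = 3; exact two-sided permutation p = 0.2). Dtl, the substrate adaptor of the ligase that destroys Cdt1 in S phase, had 49, 33.7 and 19.7 CPM in Hopx-CreER libraries, against 67.9, 61 and 59.5 CPM in Lgr5-CreER libraries. The Dtl groups did not overlap, but it missed the threshold (edgeR adjusted p 0.0711). Cul4b and Skp2, of ligases that act on Cdt1, had edgeR adjusted p of 0.0533 and 0.106, and DESeq2 called Dtl and Skp2 lower.

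Of the 19 genes listed under origin firing and helicase assembly, 2 fell, against 3.3% of all tested genes. The genes that fell, Wdhd1 and Timeless, act at the helicase or the moving fork. Of the rest, 0 rose and 17 did not pass, and the median of the list was -0.39. At an unadjusted edgeR p under 0.05, 4 of the 19 were lower, against 11.1% of all tested genes. For 8 of the 19, all Hopx-CreER libraries lay under all Lgr5-CreER libraries, against 16.2% of tested genes. Wdhd1, which couples the helicase to DNA polymerase alpha, had 33.5, 27.4 and 17.4 CPM in Hopx-CreER libraries, against 53.1, 52.6 and 42.3 CPM in Lgr5-CreER libraries (log2 fold change -0.91 ± 0.24, SE; edgeR adjusted p 0.0339). Timeless, which with Tipin protects the moving fork, fell by 0.49 ± 0.12 on the log2 scale (edgeR adjusted p 0.0317), and Tipin was at -0.42 ± 0.15 (edgeR adjusted p 0.1). No gene of this list was called without Hopx-CreER library 2 or without any 1 of the Lgr5-CreER libraries. The kinase Cdc7 and its activator Dbf4 were at -0.40 ± 0.29 and -0.65 ± 0.27 (SE, log2; edgeR adjusted p 0.415 and 0.156).

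Of the 10 E2F and DP factors, 1 rose, 0 fell and 9 did not pass, with a median of -0.24 (-0.15 without Hopx-CreER library 3), while 9.45% of tested genes were called higher. E2f2, an activating member of the family, had 86.6, 70.9 and 84 CPM in Hopx-CreER libraries, against 44.1, 38.8 and 43 CPM in Lgr5-CreER libraries. It rose by 0.94 ± 0.13 on the log2 scale (SE; edgeR adjusted p 0.00285) and passed in 18 of 18 other fits. E2f1, also an activator, had 51.9, 41.5 and 61.8 CPM in Hopx-CreER libraries, against 73.3, 51.7 and 58 CPM in Lgr5-CreER libraries, and its groups overlapped (edgeR adjusted p 0.45). E2f6, a repressor, and Tfdp1, the main dimer partner, were at -0.41 ± 0.13 and -0.27 ± 0.09 (SE, log2; edgeR adjusted p 0.0794 and 0.0964).

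Fork and nucleotide genes gave 1 fall among 31, a share near the 3.3% of all tested genes, 0 rises and a median of -0.22. At an unadjusted edgeR p under 0.05, 9 of the 31 were lower, against 11.1% of all tested genes. For 10 of the 31, all Hopx-CreER libraries lay under all Lgr5-CreER libraries, against 16.2% of tested genes. The gene that fell, Rrm1, the large subunit of ribonucleotide reductase, was at -0.44 ± 0.12 (SE, log2; edgeR adjusted p 0.0389), and its partner Rrm2 was at 0.40 ± 0.13 (edgeR adjusted p 0.0713). Pold3, a subunit of DNA polymerase delta, was at -0.62 ± 0.20 (edgeR adjusted p 0.0743). The Rrm1 call ended without Hopx-CreER library 2 or any 1 of the Lgr5-CreER libraries, and with GC offsets (log2 fold change -0.27, edgeR adjusted p 0.161). Of 20 mitosis genes, 0 were called by edgeR, DESeq2 or limma-voom and 2 had an unadjusted p under 0.05, with a median of -0.10 (-0.0089 without Hopx-CreER library 3). Cdk1, the mitotic kinase, named here after its values were seen, had 193, 201 and 214 CPM in Hopx-CreER libraries, against 188, 186 and 193 CPM in Lgr5-CreER libraries. Mki67, Cenpf and Top2a, the smallest p-values of that list, were at -1.33 ± 0.41, -1.14 ± 0.47 and -0.69 ± 0.31 (SE, log2; edgeR adjusted p 0.0642, 0.155 and 0.186), the first pair at mean levels under 3 CPM. Whether the lists differ from the licensing members was not tested.

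**Figure D5:**
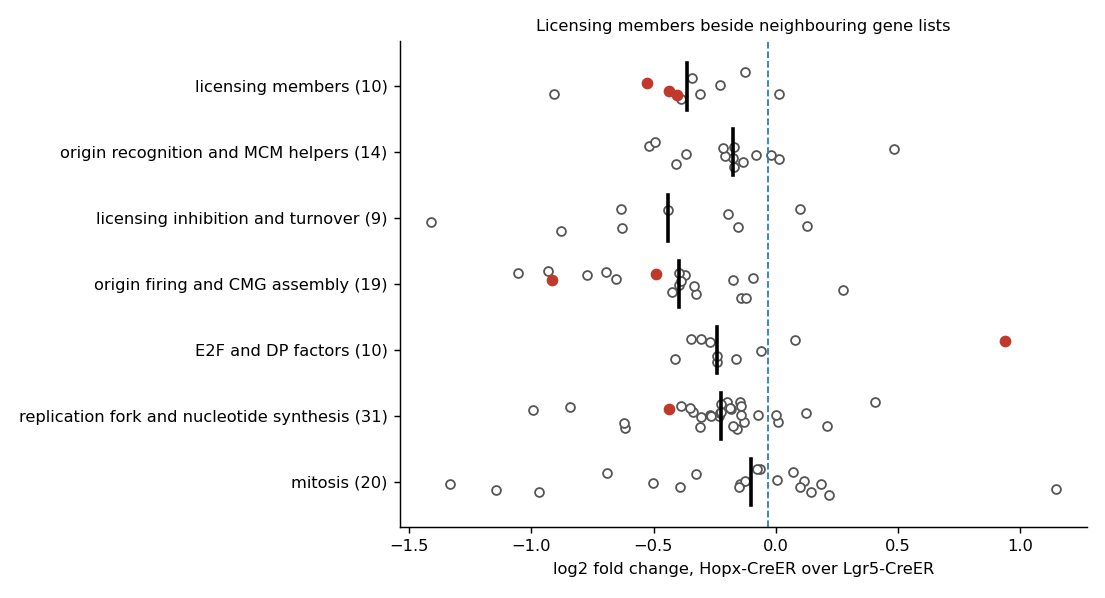
Fold changes (log2, Hopx-CreER over Lgr5-CreER, horizontal axis) of single genes in 7 lists, with the number tested in brackets, filled red where the edgeR adjusted p was under 0.05. Black bars are list medians, -0.36 for the licensing members and -0.10 for mitosis (-0.45 and -0.0089 without Hopx-CreER replicate 3), and the dashed line is the median of all tested genes, -0.03.

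Genes that start within 1000 bases of a member on the opposite strand were read as well, since such pairs lie around a shared region. Ap4m1 and Ufd1 start inside the spans of Mcm7 and Cdc45, so those pairs overlap at their starts, and only Prkdc and Mcm4 point away from each other. Ap4m1, an adaptor protein subunit that starts 420 bases from Mcm7, had 13.6, 12 and 14.5 CPM in Hopx-CreER libraries, against 27.5, 22.4 and 25.9 CPM in Lgr5-CreER libraries. It fell by 0.92 ± 0.19 on the log2 scale (SE; edgeR adjusted p 0.0145), while Mcm7 did not pass, and exons of the pair overlap by 321 bases. Prkdc, the DNA-dependent protein kinase that starts 466 bases from Mcm4, averaged 0.837 ± 0.154 CPM in Hopx-CreER cells and 2.16 ± 1.06 CPM in Lgr5-CreER cells (SD, n = 3; edgeR adjusted p 0.0975). Ufd1, which starts 208 bases from Cdc45 and acts in protein degradation, averaged 68.8 ± 6.26 CPM in Hopx-CreER cells and 64.7 ± 5.39 CPM in Lgr5-CreER cells (SD, n = 3; edgeR adjusted p 0.695).

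The 5 genes outside every list whose log2 CPM over the 6 libraries was most like the mean of the members, at 10 CPM or more, were Chtf8, Cap1, Gusb, Slc41a1 and 4933439C10Rik, with Pearson r of 0.993 to 0.998. With 2 groups in 6 libraries, such values rest mostly on the difference between the groups. Chtf8, a subunit of a clamp loader used at the fork, had 72.2, 72.7 and 73.6 CPM in Hopx-CreER libraries, against 93.9, 84.5 and 87.3 CPM in Lgr5-CreER libraries. It did not pass the test (edgeR adjusted p 0.132), nor did Slc41a1 or 4933439C10Rik. Cap1 and Gusb were called lower, at -2.24 and -0.39 on the log2 scale (edgeR adjusted p 0.000979 and 0.0465). Among the members, r with their own mean was highest for Mcm3 (0.969) and Cdc6 (0.963) and lowest for Cdc45 (0.183).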

How the data were processed

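Sorted cells were lysed in TRIzol LS, and SMART-Seq v4 cDNA was made into Nextera XT libraries, which do not mark strand, per the labels' protocols. The authors deposited 1 table of raw counts, whole numbers per mouse Ensembl gene, for 6 libraries. The submitters' processing notes list kallisto, edgeR and GRCh38 without saying what each did. GRCh38 is a human build, whereas the identifiers are mouse. The counting step behind the whole numbers is not given. Symbols, positions, exon lengths and transcript GC content came from GENCODE M21 (GRCm38), which matched 23479 of 23565 identifiers.

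Groups were compared with the edgeR 4.0.16 quasi-likelihood test in R 4.3.3, with TMM factors, filterByExpr and Benjamini-Hochberg adjustment over 12439 genes at 0.05. The SE came from the F statistic, and 95% intervals from that SE with the fit's degrees of freedom. Log2 CPM for likeness used a prior count of 2. The procedure was tested on simulated counts with 200 genes changed, up or down at random. The simulated libraries were independent and had no GC trend, and fewer genes changed than the 1586 called here. Rates in the real data may therefore differ. In the simulation edgeR called 11.9% of 1.5-fold, 37.3% of 2-fold and 86.4% of 4-fold changes, and 4.26% of its calls were false. Of the DESeq2 calls, 16.9% were false. A gene that did not pass can therefore still differ. Intervals cover these libraries only, and amplified reads without molecular identifiers can repeat a molecule. The members and lists were chosen with earlier results of these data known. Named genes are all members, up to 6 called genes of each list or the 3 smallest p-values, and fixed regulators. Opposite-strand neighbours with nearby starts and the 5 most alike genes are named too. Alternatives were RLE, upper quartile and no factors, DESeq2 1.42.0, limma-voom (limma 3.58.1), other count filters, factors without Paneth markers and the top 10 genes, GC offsets (spline with 5 degrees of freedom), a threshold of 0.01, summed columns, other lengths, and each library left out. Leaving out Hopx-CreER library 3 together with GC offsets or summed columns was added after the data were seen.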

Additional observations from a re-analysis of the deposited data

How the results depend on the processing

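Mcm6 was called lower under every alternative run at 0.05, and the median log2 fold change of the members ran from -0.48 to -0.28 over the planned ones (-0.36 as reported). The median of all genes was -0.15 when only library totals were used, against -0.03 as reported. Added after the data were seen, GC offsets without Hopx-CreER library 3 gave -0.55. The count of members called, 3 as reported, was 1 with RLE factors, with summed columns or at a threshold of 0.01, 2 with the 1 CPM filter or with factors without Paneth markers and the top 10 genes, 4 with DESeq2 or no filter, 5 when only library totals were used and 8 with GC offsets. It ran from 1 to 6 with 1 library left out, and was 9 with GC offsets without Hopx-CreER library 3. All genes called, 1586 as reported, were 790 with summed columns and 654 at 0.01, and ran from 723 to 1868 with 1 library left out. They rose to 2083 with DESeq2, 2020 with no filter, 2082 with GC offsets and 2267 with GC offsets without Hopx-CreER library 3. The share higher in Hopx-CreER cells was 74.1% as reported, 56.3% when only library totals were used and 50.1% with GC offsets.

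Among licensing inhibition and turnover genes (0 called), 1 was called with library totals, upper quartile factors, limma-voom or no filter, 2 with DESeq2 or GC offsets, 0 to 1 with 1 library left out, and 1 with GC offsets without Hopx-CreER library 3. E2F and DP calls (1) were 3 with library totals or GC offsets and 5 with GC offsets without Hopx-CreER library 3, with 1 higher in each and the rest lower. Fork calls (1) were 5 with library totals, 2 with upper quartile factors, DESeq2 or no filter, 6 with GC offsets, 10 with GC offsets without Hopx-CreER library 3, 0 with summed columns or at 0.01, and 0 to 3 with 1 library left out. Firing calls (2) were 0 with summed columns or at 0.01 and 0 to 3 with 1 library left out, and mitosis calls (0) were 1 with GC offsets. Of all genes, 3.3% were called lower as reported or with limma-voom, 5.86% with library totals and 4.24% with upper quartile factors. The share was 4.59% with DESeq2, 2.85% with no filter, 8.35% with GC offsets and 9.29% with GC offsets without Hopx-CreER library 3. It was 1.02% with summed columns, 0.796% at 0.01 and 0.911% to 4.6% with 1 library left out.

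The sign turned for Cdc45, to -0.10 with library totals, -0.0268 with upper quartile factors, -0.0316 with GC offsets, -0.0213 with summed columns, -0.15 with GC offsets and -0.0785 with summed columns once Hopx-CreER library 3 was also left out, and -0.0825 to 0.0894 with 1 library left out. Cdt1 ran from -0.25 to 0.0091 with 1 library left out. In the share of the ring, Mcm2 ran from -0.67 to 0.16 and Mcm3 from -0.14 to 0.54 percentage points with 1 library left out. The causes of these shifts were not tested. A fit with fewer libraries has fewer degrees of freedom. No paired analysis was possible because the columns carry no replicate numbers. The members had 389 counts or more in every library, and whether depth limits them was not tested. Low genes of the lists, such as Mki67, rest on few counts.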
